A study of Mus musculus with 2 samples.

Results

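Mir320, Mir484, Mir877, Mir1224 and Mir702 are hairpin genes whose miRNAs are known to be made without cutting by the Microprocessor. They were taken by gene symbol from the M21 annotation and are 5 of the 2202 miRNA genes in the count tables. RNA of under 30 nt was sequenced from tissue labelled as a layer of the hippocampus. The animals were female adults, 8 to 10 months old, of a strain given as 5xFAD/CAST: 5xFAD mice are a transgenic model of Alzheimer's disease driven in neurons by the Thy1 promoter, and CAST is an inbred strain of wild origin. Both libraries, biological replicates 1 and 2, belong to this 1 group under a shared donor entry, and the labels do not say whether they came from separate animals. The data therefore give levels and the spread between these libraries, and no effect of the transgenes.

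Most miRNAs are cut out of long transcripts in the nucleus by the Microprocessor, a complex of the nuclease Drosha and its partner Dgcr8, and are then cut by Dicer in the cytoplasm. Mirtrons replace the first step by splicing: a short intron is released, debranched and folded into a hairpin that Dicer accepts. Mir320 and Mir484 are known in mouse cells as short capped hairpins, whose 5′ end is the start of transcription itself. The mature products of both routes enter Argonaute and pair with targets through the seed, bases 2 to 8.

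The mature sequences are given first, with the seed in capitals. Where the 5′ arm of a mirtron begins on the first base of its intron, the first bases of the intron set its seed. RefSeq's table for GRCm38.p6 matched 4 of the 5 genes and held 7 mature sequences for them, and Mir320 is named only. All are written 5′ to 3′.
miR-484: uCAGGCUCaguccccucccgau
miR-877-5p: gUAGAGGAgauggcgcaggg
miR-877-3p: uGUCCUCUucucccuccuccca
miR-1224-5p: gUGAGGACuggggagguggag
miR-1224-3p: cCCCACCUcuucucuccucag
miR-702-5p: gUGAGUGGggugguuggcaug
miR-702-3p: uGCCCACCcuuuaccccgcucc
No seed was shared among these 7. Among the 1738 mature sequences of the table, 6 of the 7 seeds had no second holder. The seed of miR-702-5p had 1, miR-3102-5p, which comes from another gene whose hairpin fills an intron:
miR-3102-5p: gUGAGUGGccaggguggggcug
These miRNAs have their first 8 bases in common. None of the 7 sequences stood whole in the hairpin of any other gene of the table (0 of 1005 hairpins for each).

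The hairpins of the mirtron-type genes follow, with capitals for the first and last 2 bases of the annotated intron wherever the hairpin covers them. They show how closely hairpin and intron coincide.
Mir877: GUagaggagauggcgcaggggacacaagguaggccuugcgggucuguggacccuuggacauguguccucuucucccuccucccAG
Mir1224: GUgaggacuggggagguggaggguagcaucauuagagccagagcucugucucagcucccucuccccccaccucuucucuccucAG
Mir702: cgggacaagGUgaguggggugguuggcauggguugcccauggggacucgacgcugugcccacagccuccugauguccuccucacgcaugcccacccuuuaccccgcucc
Mir877 (ENSMUSG00000077931.1) lies on the minus strand of chromosome 17 from 35960730 to 35960814 in mm10. It fills intron 12 of the 22 introns of Abcf1, a gene for an ATP-binding protein of translation initiation, and both ends fall on the ends of that 85-base intron. Mir1224 (ENSMUSG00000080669.1) lies on the plus strand of chromosome 16 from 20604452 to 20604536 and fills the last of 22 introns of Vwa5b2, also 85 bases long. Mir702 (ENSMUSG00000076240.1) lies on the plus strand of chromosome 5 from 136991433 to 136991541, over intron 13 of the 18 introns of Plod3, a lysyl hydroxylase gene of collagen maturation. Its hairpin starts 9 bases before the first base of that 102-base intron, in the exon, and stops 2 bases short of the last. Exons of Plod3 transcripts typed as protein-coding and as retaining an intron overlap this hairpin on its strand. An exon sharing any base with the hairpin was counted here, so the extent of the overlap is not given.

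By position, the mirtron label thus fitted Mir877 and Mir1224 to the base, and Mir702 within 10 bases. Mir702 also lay 191 bases from a transcript start of Plod3. Hairpins with both ends within 10 bases of the ends of 1 intron on their strand were rare in the annotation, at 29 of 2202 genes (1.32%), 3 of them members. Introns of at most 102 bases made up 5.00% of the 284220 annotated introns. The 5′ arms miR-877-5p, miR-1224-5p and miR-702-5p each began on the first base of the intron. A start with GU, the first bases of nearly all introns, was found in 62 of the 1738 mature sequences of the table (3.57%). A start with GUGAG, as in miR-1224-5p and miR-702-5p, was found in 14 (0.806%), of which 10 came from the 29 intron-spanning genes. Of the 25 intron-spanning genes with a mature sequence in the table, 18 had one that began on the first base of the intron. At the other end, miR-1224-3p closed on the last base of the intron, miR-877-3p 1 base before it and miR-702-3p 2 bases before it.

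**Figure D1:**
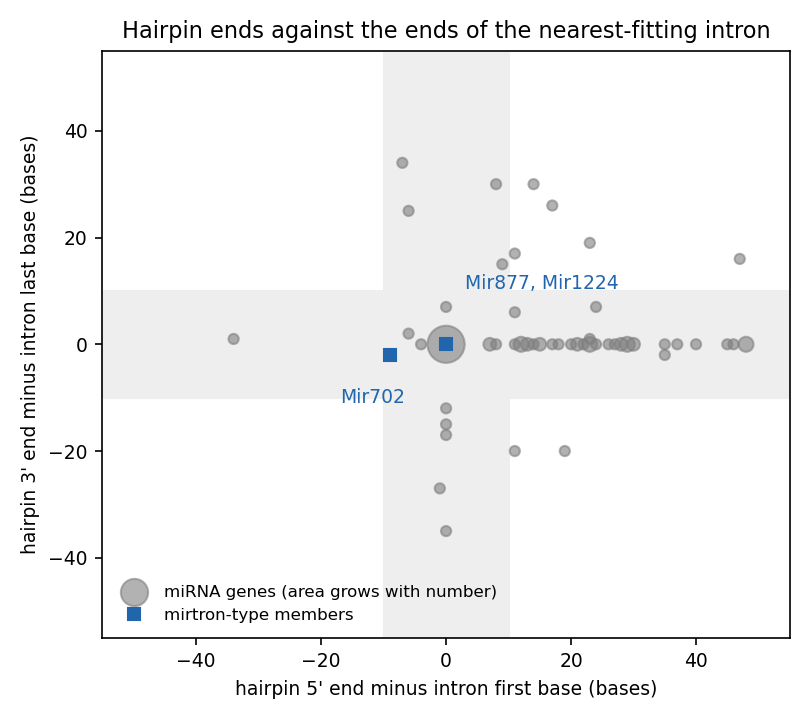
Offset of each annotated hairpin from the ends of its best matching same-strand intron, in bases (x axis, 5′ end; y axis, 3′ end), for genes with both offsets within 50; grey circles grow with the number of genes, blue squares are the mirtron-type members, and the grey bands mark the 10-base windows. Mir877 and Mir1224 sit at 0 on both axes among 22 such genes, and Mir702 sits at -9 and -2.

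The remaining pair lay outside introns and close to the starts of genes that run the other way. Mir320 (ENSMUSG00000065528.1), on the plus strand of chromosome 14 from 70443510 to 70443591, began 63 bases from a start of Polr3d, a gene for a subunit of RNA polymerase III. A start on either strand was as close as this for 120 of the 2202 genes (5.45%). Mir484 (ENSMUSG00000070074.1), on the plus strand of chromosome 16 from 14159626 to 14159692, began 359 bases from a start of Marf1, which encodes an RNA-binding protein of oocyte meiosis. That distance was met by 335 genes (15.2%). Exons were compared on the hairpin's own strand alone, and there none of another gene overlapped Mir320 or Mir484. Overlap with exons on the other strand was not examined. On their own strand the nearest annotated starts were 13966 bases away for Mir320, at Phyhip, and 3649 for Mir484, at Nde1, a gene of spindle and neuronal migration. M21 thus has no start of another gene at the 5′ end of either hairpin on its own strand, and the label of a 5′-end hairpin could not be checked against it.

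Levels are given as CPM, the counts on the gene's own strand scaled to the total of such counts over all miRNA genes. The libraries held 3135960 such counts in replicate 1 and 4377622 in replicate 2, of 9962659 and 12761689 reads. Multimapping reads, 36.3% and 41.7% of the reads, stand outside the gene counts. As to the label of the tissue, 12 of 16 brain and neuron markers were detected with a summed level of 37244 and 35922 CPM, and the liver marker Mir122 stood at 28.4 and 38.4 CPM. The undetected 4 were Mir124a-1, Mir124a-2, Mir124a-3 and Mir9-2, copies of miRNAs encoded at several loci, with means from 0.228 to 2.05 CPM. Some multi-copy genes can thus read near 0 here in the tissue they mark. Others of the list did not, such as Mir128-1 and Mir9-1, with means of 6807 and 26.4 CPM. Whether copy number was the reason was not tested. The 0 counts of the striated muscle markers Mir1a-1, Mir1a-2, Mir133a-1 and Mir133a-2, also copies, were therefore not read as absence, and the other muscle markers, Mir208a and Mir208b, had means of 0.845 and 0.662 CPM. The endothelial Mir126a differed more between replicates 1 and 2, at 12521 and 22475 CPM, and so did the hindbrain and spinal cord list, at 141 and 504 CPM. Both mature arms of a hairpin are added in 1 gene count, and counts were not divided by length. The members' mature sequences in the RefSeq table are 20 to 22 bases long, while the lengths of the reads were not analysed here. In tissue, fewer cells of a type and less RNA per cell cannot be told apart.

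All 5 genes were detected, with at least 10 counts in each library, against 17.4% of all 2202 genes. Together they held 0.911% of the counts in replicate 1 and 0.636% in replicate 2 (0.774% ± 0.195, SD, n = 2). Mir320 and Mir484 alone supplied 0.818% and 0.535%, and the mirtron-type genes 0.0937% and 0.101%. The members' median was 8.73 on the log2(CPM + 1) scale, beside 0 for all genes, 6.82 for the 384 detected genes and 0 for the other 990 genes in introns of their own strand. Of those 990, 234 were detected (23.6%).

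Mir320, whose product is a broadly expressed miRNA, was the highest. It had 20701 counts in replicate 1 and 17061 in replicate 2, or 6601 and 3897 CPM (5249 ± 1912, SD, n = 2). It ranked 28 among the miRNA genes in replicate 1 and 45 in replicate 2, and supplied 72.4% and 61.3% of the members' counts. Mir484, likewise found in many tissues, had 4943 and 6365 counts, or 1576 and 1454 CPM (1515 ± 86.4). Its rank was 74 and 77. Mir320 exceeded Mir484 by 4.19 times in replicate 1 and 2.68 times in replicate 2, with no overlap between their values.

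The mirtron-type genes lay lower and closer together. Mir877 had 1415 and 1743 counts, or 451 and 398 CPM (425 ± 37.5, SD, n = 2), and was 3.57 times below Mir484 by the means. Mir1224 had 725 and 1392 counts, or 231 and 318 CPM (275 ± 61.4). Mir702 had 798 and 1283 counts, or 254 and 293 CPM (274 ± 27.3). Mir877 stood above the other two in both libraries, and above Mir1224 by 1.95 and 1.25 times. The order of Mir1224 and Mir702 was not the same in the libraries, and their difference of 0.811 CPM lay far inside their spread. From Mir320 down to Mir702 the range was 19.2 times by the means, 25.9 in replicate 1 and 13.3 in replicate 2.

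**Figure D2:**
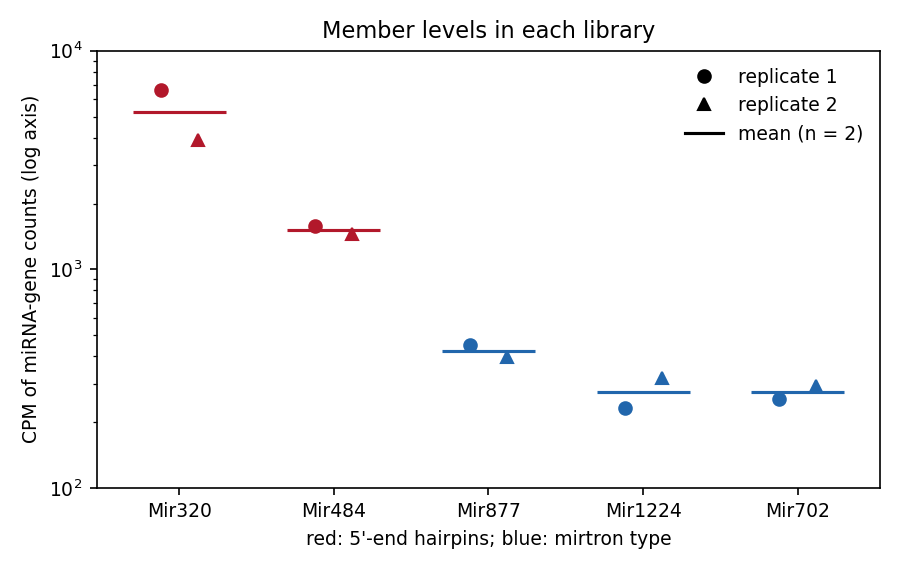
CPM of each member on a log axis, with replicate 1 as circles, replicate 2 as triangles and their mean as a line; red marks the 5′-end hairpins and blue the mirtron type. Mir320 and Mir484 sit at 5249 and 1515 CPM on average, and the 3 mirtron-type genes between 274 and 425 CPM.

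Strand and overlap left these counts almost untouched. The opposite strand had 1 count for Mir702 in replicate 1 and 0 for every other member and library, and no member overlaps a second annotated miRNA gene. Nearest in level over the 2 libraries were Mir100 to Mir320, Mir181b-2 to Mir484, Mir125b-2 to Mir877, Mir15b to Mir1224 and Mir339 to Mir702. Their distances were 0.20, 0.17, 0.19, 0.04 and 0.14 on the log2(CPM + 1) scale. With only 2 points, this is a likeness of level and no more.

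Among the members, Mir320 differed most between the libraries. After TMM scaling, Mir320 was 1.72 times higher in replicate 1 than in replicate 2 (95% counting interval 1.69 to 1.76), the direction opposite to that of Mir126a and of the hindbrain list. Their part in this difference was not tested. Mir877 was 1.15 times higher (1.07 to 1.24, exact binomial test over 459 genes, adjusted p = 0.00022). Mir484 was 1.10 times higher (1.06 to 1.14, adjusted p = 1.08e-06, same exact test). Mir1224 went the other way, at 0.739 times (0.674 to 0.809, adjusted p = 7.40e-11, exact), and so did Mir702, at 0.882 times (0.807 to 0.964, adjusted p = 0.0108, exact). The test takes counting error as its only source of spread, while PCR copies of 1 molecule count as separate reads, so the intervals cover counting error alone.

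All 5 members were called different, 3 higher in replicate 1 and 2 higher in replicate 2, but so were 57.7% of the 459 genes tested, 26.6% in the first direction and 31.2% in the second. Among the 148 genes with at least the 2081 summed counts of Mir702, a limit set after its value was seen, 129 were called (87.2%). A share this high among deep genes leaves nothing particular to the members in their calls. The spread over all genes gave a biological coefficient of variation of 0.386 and a median difference of 1.33 times. Mir320's difference was larger than that of 70.6% of the tested genes, and larger ones were found for 25 of the 148 deep genes. Mir1224 exceeded 52.9% of the tested genes, and Mir877, Mir702 and Mir484 exceeded 27.9%, 24.8% and 17.9%. The tested genes include ones with far fewer counts than the members. Among the 148 deep genes the median difference was smaller, at 1.23 times.

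**Figure D3:**
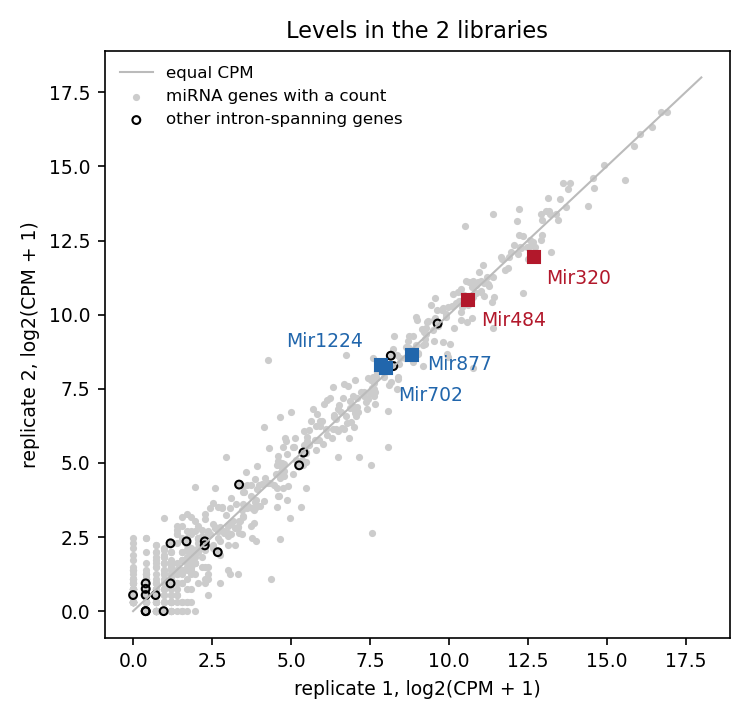
Level in replicate 1 (x axis) and replicate 2 (y axis), log2(CPM + 1), for each of the 757 miRNA genes with a count; red and blue squares are the members, open circles the other intron-spanning genes, and the line marks equal CPM. Mir320 lies below the line, at 12.7 and 11.9, and the other members lie near it.

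Mir877, Mir1224 and Mir702 were not the only hairpins of their kind in the hippocampus. Of the 26 other genes whose hairpin spans an intron by the same rule, 9 were detected (34.6%, against 17.4% of all genes), and 6 had no count in either library. They summed to 1497 and 1639 CPM, against 937 and 1009 CPM for the 3 members, which thus held 38.5% and 38.1% of the intron-spanning counts. The highest intron-spanning gene was Mir3102, in intron 8 of Arhgef17. With 2510 and 3639 counts it stood at 800 and 831 CPM (816 ± 21.8, SD, n = 2), and it was not called different between the libraries (0.978 times, exact binomial test, adjusted p = 0.50). It lies on the minus strand of chromosome 7 from 100882306 to 100882409. Mir3102 exceeded Mir877 by 1.77 and 2.09 times and Mir702 by 3.15 and 2.84 times, so of the pair that shares a seed, the gene outside the member list was the higher in both libraries. How much of either count belongs to the 5′ arm cannot be read from gene counts.

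Mir7080 and Mir1981 were of the members' order of magnitude. Mir7080, in an intron of the copine gene Cpne7, had 286 and 391 CPM (338 ± 74.5), and Mir1981, in an intron of Marc2, an amidoxime-reducing enzyme of mitochondria, had 302 and 307 CPM (304 ± 3.24). Their values overlapped each other, and those of Mir1981 and Mir1224 overlapped too. Those of Mir7080 also overlapped Mir1224, at 231 and 318 CPM, and Mir702, at 254 and 293 CPM, though Mir7080 was the higher in each library. Mir877, at 451 and 398 CPM, was above Mir7080 in both libraries. Both hairpins fill their introns to the base, as shown by the capitals:
Mir7080: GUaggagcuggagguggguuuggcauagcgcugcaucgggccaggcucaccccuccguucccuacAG
Mir1981: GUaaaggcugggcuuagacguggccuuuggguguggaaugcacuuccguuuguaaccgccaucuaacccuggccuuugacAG

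Below these 6 genes the level dropped by 6.77 times, from Mir702 to Mir6944. Mir6944, in an intron of Dbn1, which encodes the dendritic spine protein drebrin, had 129 and 174 counts, or 41.1 and 39.7 CPM. Mir3547, in an intron of Baiap3, a gene of vesicle release, had 37.3 and 29.2 CPM. Gm24589, in the last annotated intron of the polycystin gene Pkd1, had 29 and 80 counts, or 9.25 and 18.3 CPM. Between the libraries, 2 of the 11 tested genes of this class other than the members were called different, Mir7080 and Gm24589, both higher in replicate 2 (background 57.7% in either direction). A call depends on depth, and most of the 11 had far fewer counts than the members, such as 117 and 128 for Mir3547. These shares were not compared at like depth. The 6 highest genes held 95.5% and 95.9% of all intron-spanning counts. Of the 22 hairpins with both ends on the intron ends 10 were detected, and of the 7 with a shifted end 2 were, Mir702 among them.

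**Figure D4:**
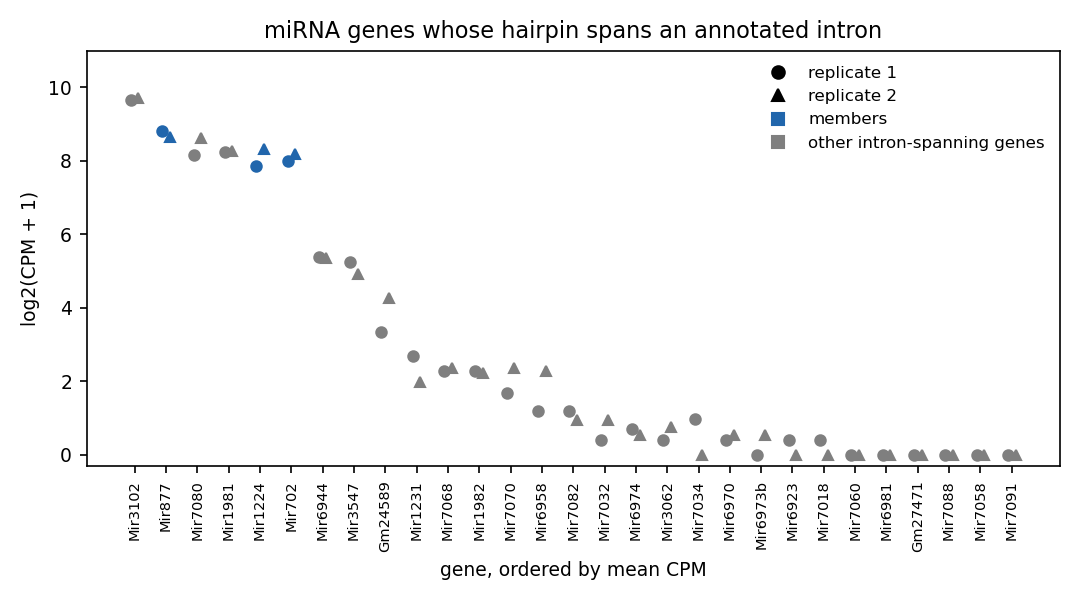
Level of the 29 genes whose hairpin spans an annotated intron, as log2(CPM + 1), ordered by mean CPM; circles are replicate 1, triangles replicate 2, and blue marks Mir877, Mir1224 and Mir702. Mir3102 leads, the members stand beside Mir7080 and Mir1981, and the genes from Mir6944 on lie at or below 41.1 CPM.

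Hairpins of other unusual origins were detected as well. Of those from small nucleolar RNA or tRNA transcripts, 4 of 4 listed genes were detected, against 17.4% of all genes. Mir1839 was at 2096 and 1798 CPM, above Mir484 in both libraries and below Mir320. Mir664 was at 197 and 205 CPM, below the 3 mirtron-type members in both, Mir1983 at 211 and 270 CPM, and Mir1291 at 4.78 and 6.62 CPM. Mir451a, a red cell miRNA that needs Drosha but is cut by Ago2 in place of Dicer, was at 43.4 and 31.8 CPM.

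In sequence, the members' hairpins were rich in G and C. Among the 1005 hairpins of the RefSeq table the median GC content was 51.7%, and it was 58.2% in Mir484, 60.0% in Mir1224, 61.2% in Mir877 and 65.1% in Mir702. Mir484 thus stood at or above 76.2% of all hairpins and Mir702 at or above 92.6%. The 20 other intron-spanning hairpins of the table had a median of 60.0%. Predicted folding was less apart: the minimum free energy per base was -0.504 kcal/mol for Mir1224, -0.435 for Mir702, -0.429 for Mir877 and -0.367 for Mir484, around a median of -0.406 over all hairpins. Mir484 had the weakest fold of the 4, and 66.1% of hairpins were at or below its value. A hairpin that opens with GU and closes with AG, as in Mir877 and Mir1224, was found in 30 of the 1005 (2.99%). Of these 30, 15 were among the 23 intron-spanning hairpins of the table, all of them among the 16 with both ends on the intron ends. There the letters are those of the intron's own ends, so this share restates the position rule. The letters were sought on the hairpin's own strand, at its ends alone.

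**Figure D5:**
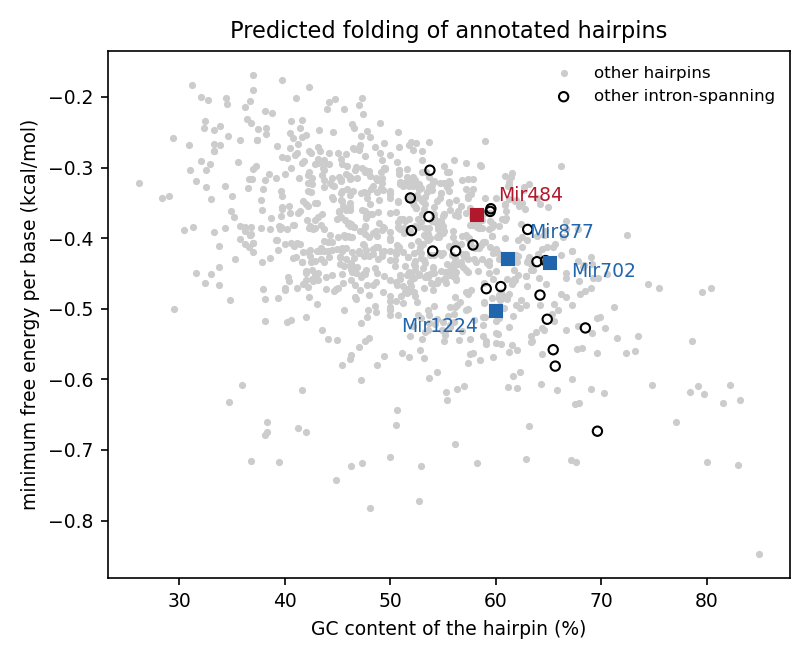
GC content (x axis, %) and minimum free energy per base (y axis, kcal/mol) of the 1005 hairpins in the RefSeq table; squares are the 4 members it holds, in red for Mir484 and blue for the mirtron type, and open circles the other intron-spanning hairpins. The members lie right of the median GC content of 51.7%, at 58.2% to 65.1%, and within the range of folding energies of the other hairpins.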

How the data were processed

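The authors deposited 1 table of raw read counts per library, which names mm10 and the M21 annotation per the deposited notes. For aligner, counter and trimming, the sources used here give nothing. Each table has 4 summary lines and 3 columns of counts, read as unstranded, own-strand and other-strand. Library sizes leave out those lines. Unmapped reads were 26.5% and 18.1%, and reads outside miRNA genes 5.72% and 5.91%. The own-strand column held 93.4% and 91.9% of stranded counts. The members and lists were chosen with earlier results of these data known.

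CPM was computed over own-strand counts, with a pseudocount of 1 for log2 levels and 0.5 CPM for the ranks of library ratios. The 2 counts of a gene were compared with a two-sided exact binomial test against TMM-scaled library sizes (edgeR 4.0.16, R 4.3.3), with Benjamini-Hochberg adjustment over the 459 genes with 10 counts in either library, at 0.05. The p-values compare these 2 libraries alone and take counting error as the only source of spread. The biological coefficient of variation comes from the common dispersion in edgeR, as its root. Intervals are exact Clopper-Pearson ones and cover counting error only. The test was tried on simulated counts with counting error alone. There it called 77% of genes changed 2-fold, 88% of those changed 4-fold and 1.16% of unchanged ones. That setting lacks the wider spread between these libraries, so it cannot support the calls made here. Introns and starts came from M21 transcripts of genes other than miRNA genes. Hairpins were folded with RNAfold 2.7.2; 965 of 1005 RefSeq hairpins matched an M21 gene by symbol and position, and 23 of the 29 intron-spanning genes. Named were the members, the nearest gene in level, the 6 highest other intron-spanning genes, the fixed lists and genes sharing a seed. Other tools were matplotlib 3.10.9, scipy 1.17.1, numpy 2.4.6 and pandas 2.3.3 under Python 3.11.15. Alternatives covered the count minimum, strand column, denominator, DESeq2 1.42.0 size factors, pseudocount, windows and each replicate left out.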

Additional observations from a re-analysis of the deposited data

How the results depend on the processing

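The count of 5 detected members was the same at minimums of 1, 5, 20 and 100 counts. It was also the same in the unstranded column and in either library alone. The lowest count of a member was 725, for Mir1224 in replicate 1, so none of these minimums could lower the number. Over all 2202 genes, 17.4% were detected at 10 counts in each library, and shares at the other minimums are not given here. All 5 stayed different between libraries under total counts, DESeq2 size factors, other minimums and the unstranded column. Over all genes, 233 to 268 were called under these settings, beside 265 of 459 (57.7%) in the main one. The number of genes tested changed with the setting. It was 233 of 384 (60.7%) with the minimum in both libraries, 247 of 434 in the unstranded column and 259 of 757 with no minimum. Among the 148 deep genes of the main setting 129 were called (87.2%), so the unchanged 5 is nothing particular to the members. Divided by all reads, the members' share was 0.253% in place of 0.774%. The excess of the members' median over all genes, 8.73 on the log2(CPM + 1) scale, was 9.73 with a pseudocount of 0.5, 6.42 with 5, and 1.92 against detected genes alone. A window of 25 bases gave 60 intron-spanning genes in place of 29, with the same 3 members counted, and a window of 2 bases gave 22, with 2 members. No paired analysis was possible because the study has 1 group. With 2 libraries, no test between them remains when either is left out.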

Other observations

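Some hairpins that do not span an intron share its last base. Within 50 bases, 36 genes had their last base on the last base of an intron and their first base over 10 bases inside it. Of these 36, 6 were detected, a share near the 17.4% of all 2202 genes. The highest was Mir6953, in an intron of Grina, at 14.3 and 16.2 CPM, below each of Mir877, Mir1224 and Mir702. The reverse arrangement, sharing only the first base of the intron, was found in 4 genes, 1 of them detected. These classes were chosen after the offsets had been seen.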
